A study of Mus musculus with 4 samples.

Results

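The 10 genes described here carry the insulin and insulin-like growth factor (IGF) signal into a cell and on to its glucose transporters. They are the ligand gene Igf1, the receptor genes Insr and Igf1r, the adaptor genes Irs1 and Irs2, the kinase genes Pik3ca, Akt1 and Akt2, and the glucose transporter genes Slc2a1 and Slc2a4. They were chosen by name and not by a measured value, but earlier results of these data were known. They are 10 of 21670 protein-coding genes (chromosome Y and mitochondrial genes were left out). The measurement was H3K4me3, trimethylated lysine 4 of histone H3, mapped by chromatin immunoprecipitation and sequencing in whole heart tissue. All libraries came from female adult mice of the hybrid strain B6CASTF1/J aged 2 months, and the labels name no treatment, transgene or second genotype. There were 4 libraries from 2 pools of tissue: pool G (biological replicate 1) and pool H (biological replicate 2), each of 2 heart biosamples with 2 technical replicates. All libraries carry the same donor record, so the pools may not be separate animals, and the spread between them may be technical.

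The values are 4 lists of peaks on the mouse build mm10: 1 per pool, and 2 made from both pools, which the deposited notes call replicated and pseudoreplicated. The replicated list is the main one here, and the list of both pools called pseudoreplicated is mentioned only where it differs. A gene is called marked where a peak lay within 1000 bp of a start of one of its protein-coding transcripts (GENCODE M21). Its fold enrichment is the authors' signal value of the highest such peak, read as the ratio to a control, and its domain is the widest run of peaks there with gaps of at most 1000 bp. The replicated list held 24996 peaks, pool G's 24826 and pool H's 21505, and their depth in reads is not given in the sources used here. Each pool gave 1 list, so no test between groups was made, and the values of these genes are set beside those of all marked genes as a description. The tissue label was checked against markers: all 6 cardiomyocyte, 4 endothelial and 4 fibroblast marker genes were marked, against 0 of 3 hepatocyte markers and 0 of 4 macrophage and leukocyte markers (1 of 4 in pool G), 1 of 5 adipocyte markers and 2 of 4 skeletal muscle markers.

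Insulin and IGF-1 bind related receptor tyrosine kinases, which phosphorylate docking proteins of the IRS family. These recruit phosphoinositide 3-kinase (PI3K), whose lipid product brings the kinase Akt to the membrane, where it is activated. In heart muscle, as in skeletal muscle and fat, Akt moves vesicles with the transporter GLUT4 to the cell surface, and the pathway also governs growth of the muscle cell. H3K4me3 is laid down around the starts of genes that are transcribed or ready to be, and it is most regular at promoters rich in the dinucleotide CpG.

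Every one of the 10 genes carried an H3K4me3 peak at a start in all 4 lists. Over all protein-coding genes the share was 63.0% in the replicated list (13657 of 21670) and 61.1% in all 4 lists. The median fold enrichment of the 10 genes was 15.0 against 15.3 for all marked genes, and 5 of the 10 lay above that median. The median domain width was 2808 bp against 1799 bp, and 9 of the 10 lay above that median, the exception being Slc2a1. In height, Pik3ca (22.6), Akt2 (21.6) and Insr (21.0) were the highest, and Slc2a4 (7.14) and Igf1 (6.58) the lowest. In width they ran from 1613 bp at Slc2a1 to 10283 bp at Irs1.

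**Figure D1:**
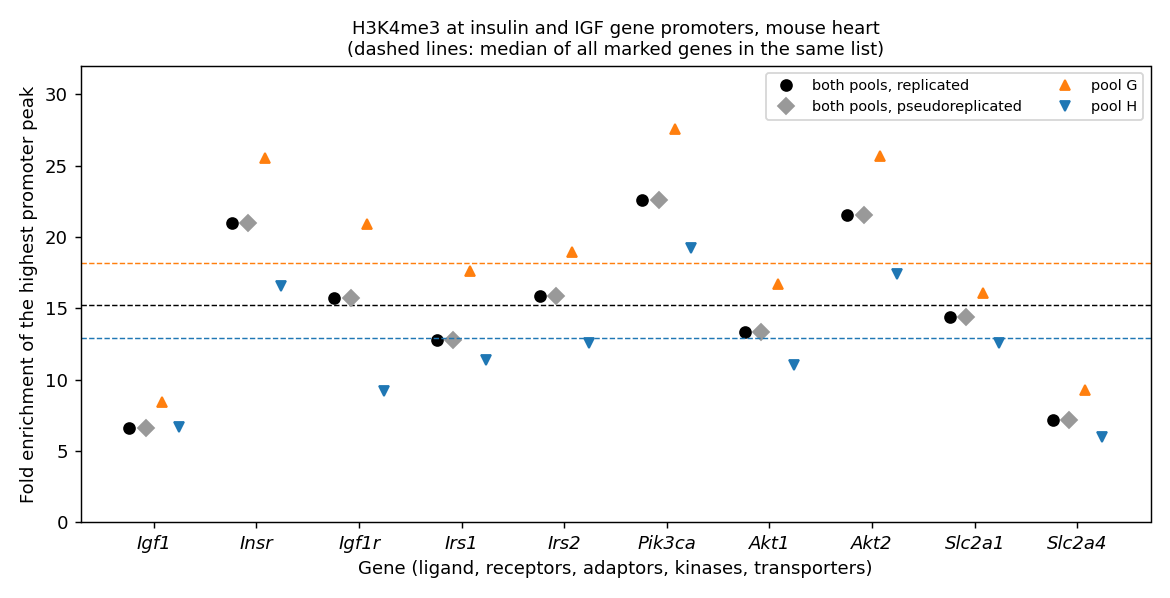
Fold enrichment of the highest promoter peak (vertical axis) of each gene in the 4 lists; dashed lines give the median of all marked genes in the replicated list (15.3), in pool G (18.2) and in pool H (12.9). Pik3ca, Akt2 and Insr lie above the line of each list, Igf1 and Slc2a4 below it, and every gene is higher in pool G than in pool H.

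The order of heights was steady at its ends and not in the middle. Pik3ca, Akt2 and Insr ranked 1, 2 and 3 of the 10 in every list, and Igf1 and Slc2a4 held the last places in every list. Between these, Akt1 kept rank 7 while Irs2, Igf1r, Slc2a1 and Irs1 changed places from list to list, and Igf1r was rank 4 in pool G and rank 8 in pool H. The pool values of neighbours in the order of the replicated list overlapped, except between Irs1 and Slc2a4, where the step down to the last 2 genes lay. Within each pool these 2 were below the other 8.

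The DNA under these peaks is shown for the gene with the widest domain (Irs1), for the gene with the narrowest (Slc2a1), and for Igf1r and Igf1, which were added after their values were seen because the Igf1r promoter is rich in CpG and the Igf1 stretch poor in it. All lines read 5′ to 3′ along the gene's own strand in GRCm38.p6 (mm10), and capitals mark CpG. The Irs1, Slc2a1 and Igf1r promoter sequences end just before the first annotated exon base, the Igf1 sequence ends just before the start nearest to its summit, and the last line is centred on the summit of the peak inside intron 2 of Igf1r. They are Irs1 chr1:82291440-82291689 (minus strand, 28 CpG in 250 bases), Slc2a1 chr4:119108495-119108710 (plus, 10 CpG in 216), the Igf1r promoter chr7:67952007-67952256 (plus, 42 CpG in 250), Igf1 chr10:87859780-87860029 (plus, 2 CpG in 250) and the Igf1r intron chr7:68129779-68129978 (plus, 5 CpG in 200).
Irs1 promoter: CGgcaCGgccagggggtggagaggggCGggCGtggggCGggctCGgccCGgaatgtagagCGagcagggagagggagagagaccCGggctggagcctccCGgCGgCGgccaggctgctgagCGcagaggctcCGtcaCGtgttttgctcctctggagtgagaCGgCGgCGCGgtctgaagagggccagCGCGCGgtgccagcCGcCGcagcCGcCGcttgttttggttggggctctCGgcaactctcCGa
Slc2a1 promoter: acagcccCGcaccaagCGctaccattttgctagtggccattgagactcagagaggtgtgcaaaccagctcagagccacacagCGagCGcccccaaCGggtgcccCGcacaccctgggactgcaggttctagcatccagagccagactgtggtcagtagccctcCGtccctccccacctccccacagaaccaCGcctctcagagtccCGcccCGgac
Igf1r promoter: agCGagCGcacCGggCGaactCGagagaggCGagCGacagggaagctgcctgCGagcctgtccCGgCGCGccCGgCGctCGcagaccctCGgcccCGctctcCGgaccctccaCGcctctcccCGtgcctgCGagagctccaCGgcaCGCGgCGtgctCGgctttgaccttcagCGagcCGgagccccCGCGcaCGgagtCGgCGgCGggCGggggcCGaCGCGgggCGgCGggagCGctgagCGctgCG
Igf1 promoter: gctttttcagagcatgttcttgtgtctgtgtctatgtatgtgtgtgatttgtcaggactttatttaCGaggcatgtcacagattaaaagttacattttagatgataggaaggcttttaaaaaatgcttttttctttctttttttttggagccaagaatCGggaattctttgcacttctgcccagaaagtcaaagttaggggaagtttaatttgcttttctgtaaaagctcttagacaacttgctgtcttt
Igf1r intron 2: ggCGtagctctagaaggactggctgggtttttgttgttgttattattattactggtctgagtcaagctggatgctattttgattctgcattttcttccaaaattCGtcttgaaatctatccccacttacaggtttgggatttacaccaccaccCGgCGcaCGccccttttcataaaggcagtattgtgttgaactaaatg
The Irs1 and Igf1r promoters are dense in CpG, Slc2a1 holds fewer, and the Igf1 and Igf1r intron lines hold the fewest of the 5, while all 5 stretches lie in marked domains or peaks. The bases shown are those of the reference strain, while these hybrid hearts also carry a CAST genome.

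The ligand gene, Igf1, carried a low mark. Igf1 encodes IGF-1, the growth factor that acts through the receptor made by Igf1r. The highest peak reached a fold enrichment of 6.58 in the replicated list, 8.44 in pool G and 6.68 in pool H (mean of the pools 7.56 ± 1.24, SD, n = 2). Only 11.7% of marked genes were lower, and the groups of values of Igf1 and Slc2a4 overlapped each other. In whole tissue, a mark on fewer cells and a weaker mark in each cell cannot be told apart. The domain, chr10:87858705-87861421, was nevertheless broader than that of 80.2% of marked genes, with 2717 bp in the replicated list (2865 bp in pool G, 2202 bp in pool H). The gene (chr10:87858265-87937042, plus strand) has 8 annotated coding starts spread over 3064 bp in its alternative leader exons. The single peak covered 7 of them in the replicated list and in pool G, leaving out the most upstream, and 5 in pool H, where the starts at 87858265, 87859068 and 87861329 lay outside it. In the replicated list its summit lay 141 bp downstream of the start whose upstream bases are printed above.

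The insulin receptor gene, Insr, carried one of the high marks. Insr encodes the receptor tyrosine kinase that binds insulin. The fold enrichment was 21.0 in the replicated list, 25.6 in pool G and 16.6 in pool H (21.1 ± 6.35, SD, n = 2), above that of 85.8% of marked genes. The domain chr8:3277410-3280307 lay at the 5′ end of the gene (chr8:3122061-3279617, minus strand), 2898 bp wide (3212 bp in pool G, 2525 bp in pool H). It was lopsided, reaching 2207 bp into the gene and 690 bp upstream of the start. A second annotated coding start of Insr, at position 3192717 inside the gene, had no peak within 1000 bp in any list.

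The receptor for IGF-1, encoded by Igf1r, was the gene of the 10 whose heights differed most between the pools. Fold enrichment there was 15.7 in the replicated list, 20.9 in pool G and 9.20 in pool H (15.0 ± 8.28, SD, n = 2). Pool G was thus higher by 1.18 on the log2 scale, a larger offset than at 98.6% of the 13245 genes marked in both pools, whose median offset was 0.51 with an SD of 0.28. The width did not share this gap: the domain measured 4726 bp in the replicated list (4779 bp in pool G, 4676 bp in pool H). With chr7:67950245-67954970 it was among the widest 5.0% of promoter domains, as was Irs1, so that 2 of the 10 genes met this bound of 4482.4 bp. The summit lay 1577 bp upstream of the annotated GENCODE start (67952827), and also upstream of the RefSeq start (67952257) that the printed promoter precedes. The gene itself spans chr7:67952827-68233668 on the plus strand.

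Irs1 had the broadest domain of the 10 genes by far, at a fold enrichment below the median. Irs1 encodes the docking protein through which both receptors engage PI3K. The domain chr1:82282851-82293133 measured 10283 bp in the replicated list, against 10402 bp in pool G and 10116 bp for pool H (10259 ± 202 bp, SD, n = 2), wider than at 99.8% of marked genes. It ran 1717 bp upstream of the start and 8565 bp into the gene (chr1:82233101-82291416, minus strand), and so held 100% of the coding sequence of 3693 bp, against a median of 4.17% over all marked genes. Of all marked genes, 8.30% had 50% or more of their coding sequence inside the promoter domain, and 1 of these 10 did. The fold enrichment was 12.8 in the replicated list, 17.6 in pool G and 11.4 in pool H (14.5 ± 4.41, SD, n = 2), higher than at 34.9% of marked genes. The domain was not 1 peak: the replicated list had 2 peaks in it, the larger 8644 bp wide, and pool H had 4, the one at the start 2917 bp wide.

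Irs2, which encodes a second docking protein, had a domain that depended on the pool. It measured 3668 bp in the replicated list and 3495 bp in pool H, and 7648 bp in pool G. In pool G the promoter peak reached far enough into the gene to join a second peak there, and the joined domain then held 99.9% of the coding sequence of 3963 bp, against 48.1% in the replicated list. The fold enrichment was 15.9 in the replicated list, 18.9 in pool G and 12.5 in pool H (15.7 ± 4.53, SD, n = 2), close to the median of marked genes. The domain of the replicated list, chr8:11006525-11010192, also held the start of 9530052E02Rik, a noncoding transcript annotated on the opposite strand of Irs2 (chr8:10984681-11008458, minus strand), so the mark cannot be assigned to either alone. Its summit lay 997 bp upstream of the GENCODE start of Irs2 and also upstream of the RefSeq start (11008929).

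Pik3ca had the highest mark of the 10. It encodes p110-alpha, the catalytic PI3K subunit that insulin signalling relies on most. The fold enrichment was 22.6 in the replicated list, 27.6 in pool G and 19.2 in pool H (23.4 ± 5.92, SD, n = 2), above 92.5% of marked genes. The domain chr3:32395953-32398484 measured 2532 bp, with 2510 bp in pool H and 3145 bp in both pool G and the pseudoreplicated list. Of the 3 annotated coding starts the mark covered the first of the gene (32397671; chr3:32397671-32468486, plus strand), and the starts at 32436151 and 32436376 had no peak within 1000 bp in any list. The longest coding transcript begins at 32436151, so Pik3ca would count as unmarked if only the longest transcript of each gene were used.

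Akt1 and Akt2 encode the kinases that carry the signal on from PI3K, Akt2 being the isoform most tied to glucose uptake and Akt1 to growth. Akt2 was the higher of the pair in every list: its fold enrichment was 21.6 in the replicated list, 25.7 in pool G and 17.4 in pool H (21.5 ± 5.87, SD, n = 2). That of Akt1 was 13.4, 16.7 and 11.0 in the same order (13.9 ± 4.06, SD, n = 2). Values of the 2 genes did not overlap, but the pool H value of Akt2 exceeded the pool G value of Akt1 by less than either SD. In width the order was the reverse and the values again did not overlap. The Akt1 domain (chr12:112672805-112675292) measured 2488 bp in the replicated list (2568 bp in pool G, 2455 bp in pool H), and the Akt2 domain (chr7:27591070-27593362) 2293 bp (2272 bp in pool G, 2093 bp in pool H). Without joining of peaks the order turned, and the widest single promoter peak was 1397 bp at Akt1 and 1748 bp at Akt2.

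At both Akt genes a coding start fell in a short gap between neighbouring peaks. At Akt1 the start at 112674276 lay in a gap of 143 bp in the replicated list (288 bp in pool G, 317 bp in pool H), with fold enrichments of 13.4 and 12.1 on its sides in the replicated list. At Akt2 the start at 27591552 lay in a gap of 189 bp in the replicated list (128 bp in pool G, 205 bp in pool H), with 6.24 before it and 21.6 after it. Among all marked genes 5.35% had such a start, against 2 of these 10. Akt2 (chr7:27591552-27640826, plus strand) also had a weak peak, chr7:27605779-27606363, over a second group of coding starts in the gene, with a fold enrichment of 3.84 in the replicated list, 4.54 in pool G and 2.99 in pool H. Of its 11 coding starts 7 were marked. Upstream of Akt1 (chr12:112653821-112674884, minus strand) stood a separate peak at the start of its neighbour Zbtb42, with a fold enrichment of 16.5 against the 13.4 of Akt1 in the replicated list.

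The glucose transporter genes differed in both measures, in opposite directions. Slc2a4 encodes GLUT4, the transporter that insulin brings to the surface of muscle and fat cells. It was low, with a fold enrichment of 7.14 in the replicated list, 9.26 in pool G and 5.98 in pool H (7.62 ± 2.31, SD, n = 2). Slc2a1 encodes GLUT1, the transporter of basal uptake found in most tissues. It had 14.4, 16.1 and 12.6 in the same order (14.3 ± 2.46, SD, n = 2), and the values of the 2 genes did not overlap. The widths were the other way round: the Slc2a4 domain (chr11:69945960-69949017) measured 3058 bp in the replicated list and in pool G and 2378 bp for pool H, and the Slc2a1 domain (chr4:119108330-119109942) 1613 bp, 1739 bp and 1597 bp. These did not overlap either. All 5 coding starts of Slc2a4 and all 4 of Slc2a1 lay inside a peak in the replicated list, and the Slc2a4 domain took in 29.3% of its short gene's coding sequence there (gene chr11:69942539-69948188, minus strand), against 1.22% at Slc2a1 (chr4:119108711-119137983, plus strand). The Slc2a4 share depended on the pool, with 29.5% in pool G and 4.85% in pool H, where the mark was also split into 3 peaks.

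**Figure D2:**
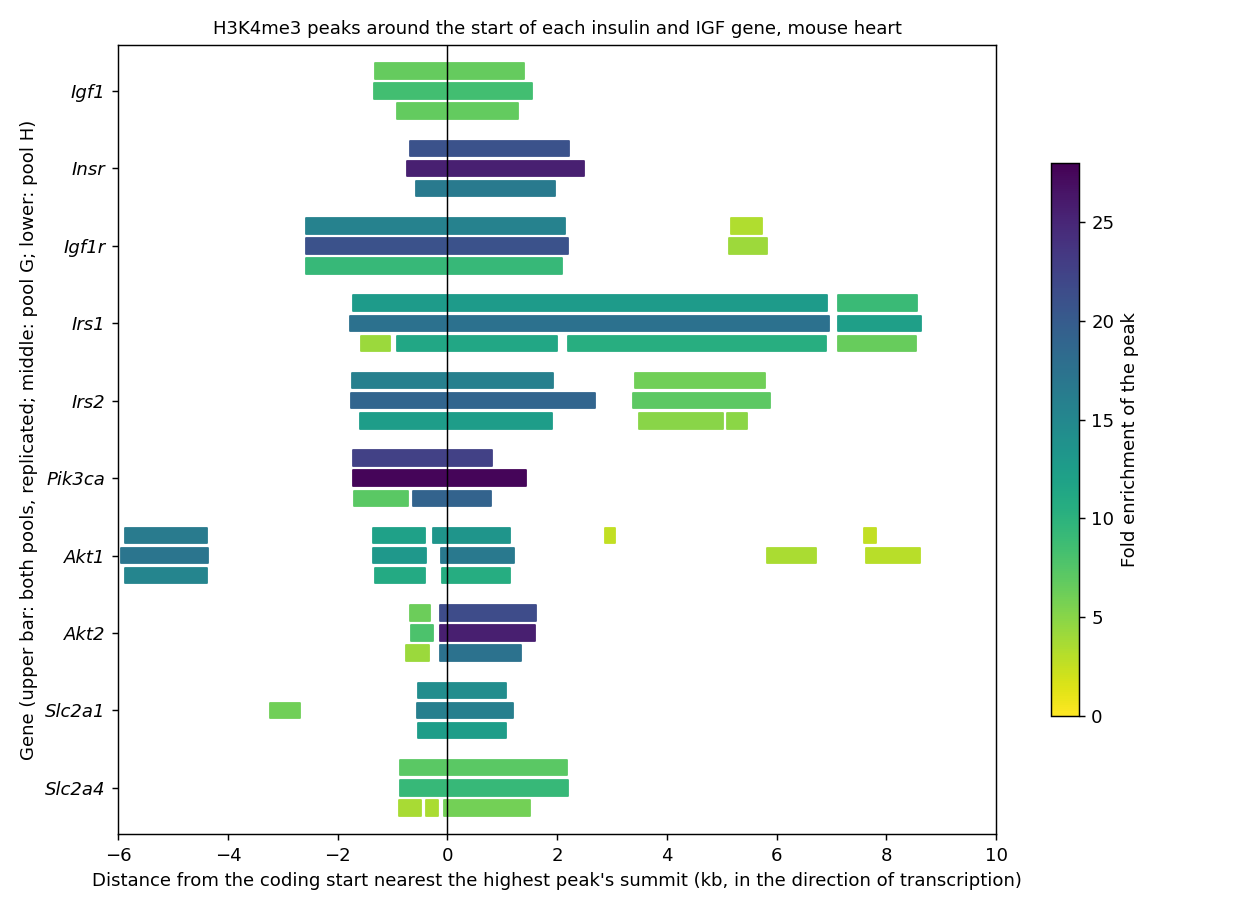
Peaks around each gene, from 6 kb upstream to 10 kb downstream of the coding start nearest the highest summit of the replicated list (horizontal axis in kb, in the direction of transcription); each bar is a peak, coloured by its fold enrichment, for the replicated list, pool G and pool H. The mark at Irs1 runs 8565 bp into the gene in the replicated list, that at Irs2 continues after a gap, and in the replicated list the Igf1r, Pik3ca and Akt1 domains reach further upstream than downstream of that start.

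**Figure D3:**
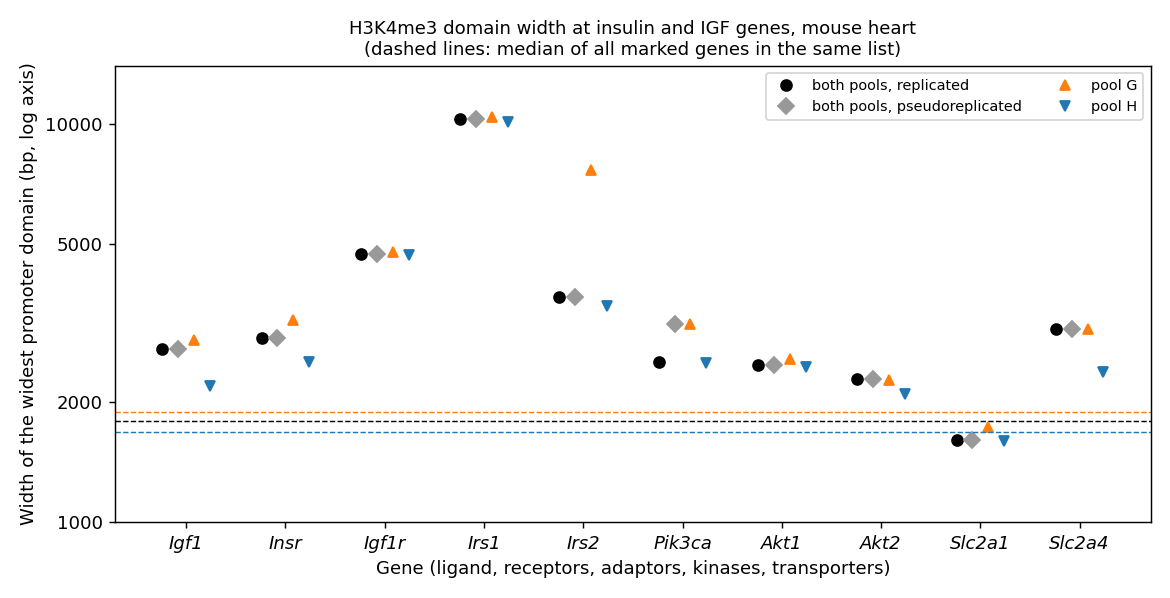
Width of the widest promoter domain (vertical log axis, in bp) of each gene in the 4 lists; dashed lines give the median of all marked genes at 1799 bp (replicated), 1892 bp (pool G) and 1680 bp (pool H). Irs1 stands between 10116 bp and 10402 bp, Slc2a1 is the one gene under the line of each list, and Irs2 moves from 3495 bp in pool H to 7648 bp in pool G.

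Where a domain lay relative to the start also varied. Over 13376 marked genes of the replicated list the domain reached a median of 1036 bp into the gene and 658 bp upstream, and 74.8% reached further into the gene. The same held for 7 of the 10 genes, whose medians were 1774.5 bp into the gene and 1336.5 bp upstream. Igf1r, Pik3ca and Akt1 reached further upstream of the GENCODE start nearest the summit, in the replicated list and in pool G. From the RefSeq starts of Igf1r (67952257), Pik3ca (32397065) and Akt1 (112674276 and 112674884), these domains instead reached further into the gene. The longer side at these genes thus depended on the start used. In pool H the highest summits of Akt1 and Igf1 were nearest to other starts (112674276 and 87860606). Measured from these, the Akt1 domain reached 982 bp upstream and 1472 bp into the gene, and the Igf1 domain 1496 bp upstream and 705 bp into the gene, so that both genes changed sides. Measured from the GENCODE start in the replicated list, the upstream side of Igf1r, 2582 bp, was longer than at 97.7% of marked genes. That of Pik3ca, 1718 bp, was longer than at 93.8%. The summit of the highest peak was downstream of the nearest start in 8 of the 10, as in 77.6% of marked genes, and in 7 of the 10 in pool H, where that of Akt1 lay upstream. In Igf1r and Irs2 it lay over 500 bp upstream, which was the case at 3.85% of marked genes.

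Peaks inside the genes, away from every annotated start of any gene, were found in 6 of the 10 in the replicated list: Igf1, Insr, Igf1r, Irs1, Irs2 and Akt1. Akt1 had none in the pseudoreplicated list or in pool H. The share was 11.9% over all protein-coding genes, 27.8% over genes of at least 50 kb and 35.3% over genes of at least 100 kb, so that it was higher among longer genes. That of Irs1 was a part of its joined promoter domain, and that of Akt1 was faint, 213 bp at a fold enrichment of 2.55, at the low end of such peaks. The one inside Igf1 was also faint, 399 bp in intron 3, with a fold enrichment of 2.78 in the replicated list, 3.40 in pool G and 2.89 in pool H. In general these peaks were small: the 4178 of the replicated list had a median fold enrichment of 3.32 and were 464 bp wide at the median.

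The peak in intron 2 of Igf1r was far stronger than most of these. It lay at chr7:68128474-68130464, with its summit 177052 bp downstream of the start, and was 1991 bp wide. Here fold enrichment was 10.9 in the replicated list, 15.4 in pool G and 12.7 in pool H, above 98.1% of peaks of this kind in the replicated list. In pool H it was higher than the promoter peak of its own gene, 1.38 times as high, and in pool G it was lower, 0.74 times as high. Of 1550 genes with both kinds of peak in pool H, 4.97% had the higher one in the body. The intronic peak thus differed less between the pools than the promoter peak did. Its bases, printed above, hold 5 CpG in 200, and no GENCODE start lies within 1000 bp of the peak. Igf1r had 2 further faint peaks, in introns 1 and 2, with fold enrichments of 3.32 and 3.17 in the replicated list, and both were absent from pool H's list.

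Insr too had a peak in its intron 2, at chr8:3220980-3221922, 58232 bp downstream of the start and 943 bp wide. It reached a fold enrichment of 6.35 in the replicated list, 8.56 in pool G and 7.93 in pool H, above 91.4% of body peaks, and 0.30 of that of the Insr promoter in the replicated list. The peak inside Irs2, chr8:11002662-11005047, was 2386 bp wide and spanned the end of the first exon and part of intron 1. Its fold enrichment was 6.06 in the replicated list, 7.01 in pool G and 5.01 in pool H, there for the higher of 2 peaks into which it was split. The strong intronic peak of Igf1r and the body peaks of Insr and Irs2 were present in each pool's own list. Upstream of Slc2a1, in contrast, a peak 2721 bp before the start appeared in pool G (6.06) and in the pseudoreplicated list (4.13) and was absent from the replicated list and from pool H.

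**Figure D4:**
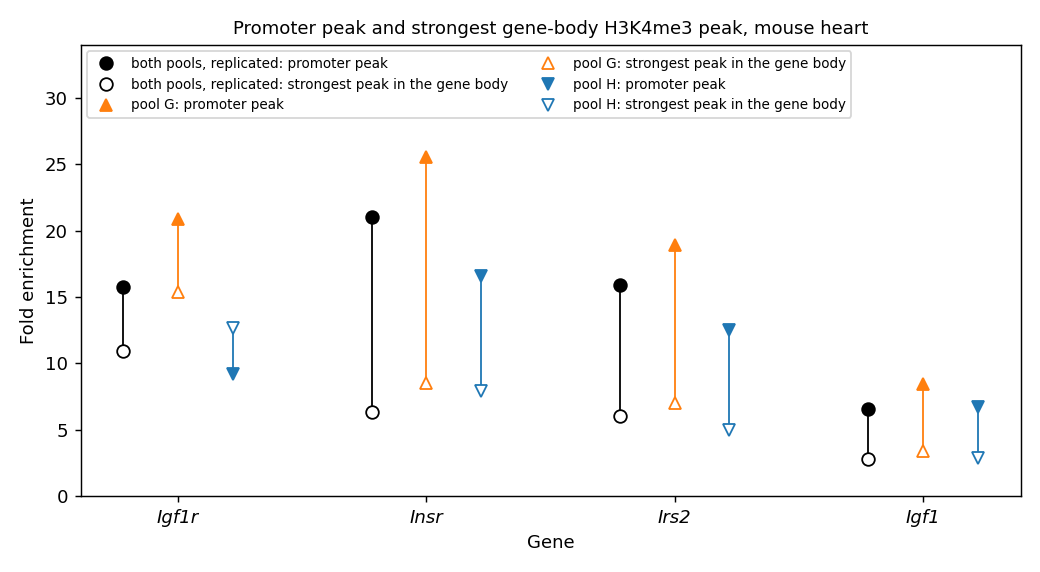
Fold enrichment (vertical axis) of the highest promoter peak (filled) and of the strongest peak in the gene body (open) in 4 genes, for the replicated list, pool G and pool H. The open marker lies below the filled one except at Igf1r in pool H, where the intronic peak is at 12.7 and the promoter peak at 9.20.

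In CpG content the set divided into 7 genes with a high-CpG promoter and 3 without (Igf1, Insr and Slc2a4). High-CpG here means that the sequence within 1000 bp of a start held at least 0.6 of the CpG its base composition predicts, and a GC share of 0.5 or more, which held for 33.7% of all protein-coding genes. Insr missed the bound narrowly with a ratio of 0.58, and Akt2 passed it narrowly with 0.60, while Igf1 had 0.46 and Slc2a4 0.48. Among all genes 96.7% of high-CpG and 46.0% of low-CpG promoters were marked, and the median widths of the marked ones were 2120 bp and 1471.5 bp. Set against marked genes of their own class, the 3 low-CpG genes were wide: Slc2a4 was wider than 90.9%, Insr than 89.8% and Igf1 than 88.2% of them. Of the high-CpG genes, Irs1 (99.7%) and Igf1r (94.7%) were wide for their class, and Slc2a1 (22.7%) was narrow. The heights of Igf1 and Slc2a4 stayed low within the low-CpG class, above 17.5% and 19.7% of its marked genes, and that of Insr stayed high, above 91.0%.

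Short sequence motifs were searched on both strands in the 250 bases upstream of the RefSeq starts, where a match is a match of letters only. Of the 10 genes 8 had an entry in the RefSeq table (GRCm38.p6), and Insr and Slc2a4 had none. The GC box GGGCGG was present upstream of at least one start of Igf1r, Irs1, Irs2, Pik3ca, Akt1, Akt2 and Slc2a1, and absent at Igf1. It occurs in 32.7% of the 32851 RefSeq promoters. Such shares count single promoters, while Akt1 and Akt2 were searched at several starts each, so the 2 are not like for like. At Akt2 the GC box stood before the start at 27591552 and before none of its other RefSeq starts. At Akt1 it occurred 4 times upstream of the start at 112674276, the one in the gap between the peaks, and it was absent at the start at 112674884. The letters CACGTG stood 115 bases before the start of Irs1, visible in the printed sequence, and 44 bases before that of Irs2, and they occur in 6.02% of promoters. GTAAACA occurred at the Akt1 start at 112674884 (3.17% of promoters), and CCAAT at Igf1 and Irs2 (33.8%). The core ACGTG, which CACGTG contains on both strands, was also present alone at Pik3ca, Akt2 and Slc2a1 (16.6% of promoters). TATAAA (12.4%) and the MEF2 consensus (2.92%) were found at none of the 8. The CpG count in the 250 bases was 42 at Igf1r, more than in 99.2% of RefSeq promoters, whose median was 6. The RefSeq start of Igf1 (87861111) is not the start whose upstream bases are printed above. Its 250 bases held 5 CpG, more than in 47.0% of RefSeq promoters, and the motif results for Igf1 refer to them.

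Between the pools, all 10 genes were higher and wider in pool G than in pool H. The same was true of most genes: of the 13245 marked in both pools, 96.1% were higher and 88.7% wider in pool G. On the log2 scale the offsets in fold enrichment of the other 9 genes ran from 0.34 at Igf1 to 0.63 at Irs1, around the median of 0.51. In width, Irs2 stood apart with an offset of 1.13, larger than at 97.5% of genes. All 16 promoter peaks of the 10 genes in pool H's list overlapped one in pool G's list by at least 1 bp. Of these, 11 did so over 50% of both peaks. Only pool H's peaks were matched, and the share over all promoter peaks was not computed. How usual these counts are therefore cannot be said.

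The other genes of the pathway, 82 on a list ordered by role, were marked more often than genes at large. In the replicated list 72 of 82 (87.8%) had a promoter peak, against 63.0% of all protein-coding genes, and 71 had one in all 4 lists. Their median fold enrichment was 16.6 and their median width 2350.5 bp, against 15.3 and 1799 bp over all marked genes. Of the 82, 53 had a high-CpG promoter, a class that held 33.7% of all protein-coding genes. Over all genes 96.7% of high-CpG and 46.0% of low-CpG promoters were marked, and the pathway share was not compared within these classes. Of the 10 pathway genes without a peak 1 had a high-CpG promoter (Irs4). These are descriptions of a chosen list, and no test was made. The 10 genes without a peak were 2 ligands, 1 receptor, 3 carriers or proteases, 1 adaptor, 1 brake and 2 transporters.

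Of the other ligands, Ins1 and Ins2, the insulin genes of the pancreatic beta cell, had no peak in any list. Igf2, the fetal growth factor, was marked at a fold enrichment of 4.90 over 2768 bp. Of the other receptors, Igf2r, which clears IGF-2, was marked (10.7, 2960 bp), and Insrr, a receptor relative that does not bind insulin, had a peak in pool G (4.73) and in the pseudoreplicated list and none in the replicated list or pool H. Carriers of IGF, proteases that free it and Stc2 made up a role of 10 genes. In the replicated list 7 were marked, all at or below 10.6, which was the value of Igfbp4. In pool H 6 were marked: Igfbp6, faint in the replicated list (2.73 over 383 bp), had no peak there, and Stc2 was highest (10.5). The widest domain among them, 5155 bp, was that of the binding protein gene Igfbp5. Igfbp1, Igfals, a partner of circulating IGF made in liver, and the protease gene Pappa2 had no peak in the replicated list, and Igfals had one in pool G (3.79).

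The receptor's other adaptors were marked in 8 of 9 cases, with a median fold enrichment of 19.3. Cbl, a ubiquitin ligase drawn to the receptor, was highest at 22.0, and Shc1, an adaptor to the Ras branch, had the widest domain at 4720 bp, which also holds a start of Cks1b. Irs4, a relative of Irs1 on chromosome X, had no peak in any list. Of 9 brakes on the receptor 8 were marked: in the replicated list the phosphatase gene Ptpn1 was highest (21.5) and the inhibitor gene Socs1 widest (2877 bp). In pool G Grb14 was highest (22.7, against 21.8 for Ptpn1) and Grb10 widest (2812 bp, against 2738 bp for Socs1). In pool H Socs3 was widest (2618 bp, against 2458 bp for Socs1). Ide, the insulin-degrading enzyme, had no peak at its coding start in any list.

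From PI3K to mTORC1 every listed gene was marked. All 6 other PI3K subunits had a peak: Pik3cb, a second catalytic subunit, was highest (21.5), and Pik3r1, the main regulatory subunit, widest (5589 bp). Both inositol phosphatases, which act on the lipid that PI3K makes, were marked, and Inppl1 was both higher (12.5) and wider (3457 bp) than Inpp5d (11.5, 1669 bp). All 7 regulators of Akt were marked, with Pdpk1, the kinase that activates Akt, at 26.8 and Phlpp1, a phosphatase of Akt, at 4765 bp. All 13 Akt targets were marked at a median of 19.5. Akt1s1, an mTORC1 inhibitor, was highest at 27.1, in a domain that also holds a start of Tbc1d17. Pfkfb2, an enzyme that raises glycolysis in the heart, was widest in the replicated list at 6761 bp, in a domain that also holds a start of Yod1. In pool H Gsk3b was widest (5812 bp, against 4286 bp for Pfkfb2). All 7 genes of the mTORC1 arm were marked, in the replicated list between 12.9 (Mlst8) and 18.7 (Eif4ebp2), with the widest domain, 2565 bp, at Eif4ebp1. The ends differed in the pools: Rps6kb1 (16.5) and Mtor (24.1) in pool G, Eif4ebp1 (10.6) and Mtor (19.3) in pool H. Rps6kb1 had the widest domain in pool G (2707 bp).

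The other sugar transporters had low marks, as Slc2a4 did. Of 8, 6 had a peak, with a median fold enrichment of 8.10 and a median width of 1182.5 bp. The exception in height was Slc2a8, an intracellular transporter, at 21.5 over 2256 bp. Slc2a2, the transporter of liver and beta cell, and Slc2a5, the fructose transporter of the gut, had no peak in any list. The genes of GLUT4 vesicle traffic had higher marks than Slc2a4 itself. All 6 were marked, from 13.4 (Rab10) to 24.8 at Vamp2, a vesicle fusion protein. Lnpep, the aminopeptidase that travels with GLUT4, had the widest domain in the replicated list, 3883 bp. In pool H the domain of Rab10 was wider (3468 bp, against 3329 bp for Lnpep).

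**Figure D5:**
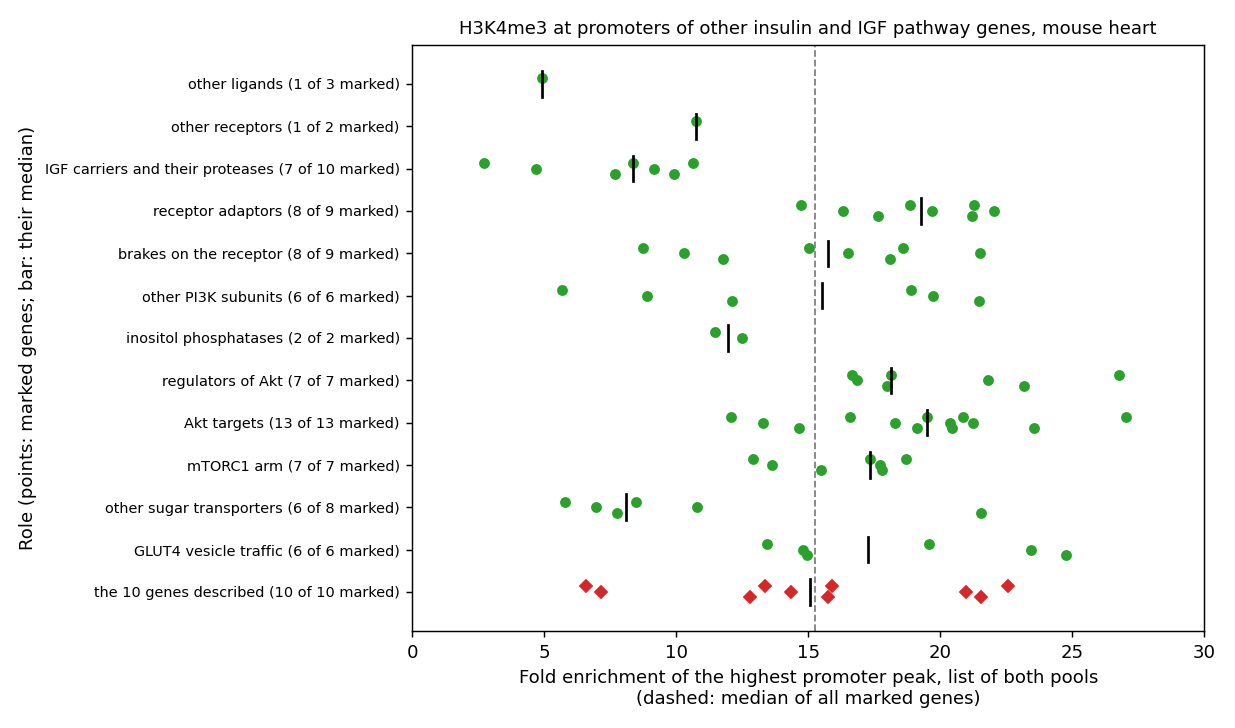
Fold enrichment of the highest promoter peak in the replicated list (horizontal axis) for the 82 other pathway genes by role and for the 10 genes described (lowest row); points are marked genes, bars their medians, and the dashed line the median of all marked genes (15.3). The adaptor, Akt-regulator and Akt-target rows lie mostly above the line, and the carriers all lie below it.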

How the data were processed

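H3K4me3 immunoprecipitates of mouse heart were sequenced with fragments of 200 to 600 bp, per the labels' protocols for frozen tissue, in 4 libraries from 2 pools. The deposited files were 4 narrowPeak lists on mm10, 3 of them called pseudoreplicated (pool G, pool H, both pools) and 1 replicated, per the deposited notes. Peak caller, version, threshold and depth in reads are not given in the sources used here, and values per library were not analysed here, so technical replicates could not be compared. The authors' signal value per peak is taken here as fold enrichment, that is, as a ratio to control. This is an assumption from the values, which exceed 1 and are not whole, and from the notes. The authors' -log10 q served only as an alternative threshold, and the summit offsets are the authors' too.

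Gene models came from GENCODE M21 and upstream sequences from RefSeq (GRCm38.p6). No peak ran past its chromosome's end in that genome. Overlaps and joins were tested on simulated data, where they were equal to those of bedtools 2.31.1. Python 3.11.15, numpy 2.4.6, pandas 2.3.3 and matplotlib 3.10.9 were used. A percentage of marked genes that lie below a value shares ties equally, and it comes from the same list. The pools gave a mean ± SD over n = 2, and no test was made because each group is 1 list. Named were all 10 genes and, per pathway role, the marked gene of highest fold enrichment, the gene of widest domain and the unmarked genes; Mlst8, Rab10, neighbours in shared domains and the printed Igf1 and Igf1r sequences were added after their values were seen. The genes and lists were chosen with earlier results of these data known. Some genes of the pathway list are not reported here and were left out of its counts. As alternatives, the other lists were used, and peaks of -log10 q 5 or more, windows of 500 and 2000 bp, the longest transcript, gaps of 0 and 3000 bp, the widest 2% and 10%, CpG bounds of 0.5 and 0.7 and an overlap of 50%.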

Additional observations from a re-analysis of the deposited data

How the results depend on the processing

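All 10 genes stayed marked in each pool's list, in the pseudoreplicated list, with a -log10 q of at least 5 and with windows of 500 and 2000 bp, and 9 did with the longest transcript only, where Pik3ca was lost. The count of other pathway genes marked stayed between 71 and 74. The median fold enrichment ran from 12.0 in pool H to 18.3 in pool G, and the median width from 2482.5 bp to 3101.5 bp. The count of genes in the widest class, 2 at the widest 5%, was 1 at the widest 2%, 3 at the widest 10%, 3 in pool G and 3 with gaps of 0 bp. Without joining, the width of Irs1 was 8644 bp, of Akt1 1397 bp and of Akt2 1748 bp, and with gaps of 3000 bp that of Irs2 was 7531 bp and of Akt1 4401 bp. With CpG bounds of 0.5 and 0.7, 8 and 4 genes counted as high-CpG. Read depth was not given, so what depth limits could not be stated, and 2 pools limit each SD.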
